A study of Homo sapiens with 18 samples.

Results

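The replication-dependent histone genes were examined in NCI-H1299 cells that over-expressed TBX2, TBX3, TBX4 or TBX5. Members were the protein-coding genes whose current symbol is that of a numbered H2A, H2B, H3 or H4 cluster gene, or H1-1 to H1-6, with the H3 pseudogene H3C9P added. The annotation lists 65 such genes, and 36 of them were found by Ensembl gene identifier among the 63677 genes of the count table. These were 6 genes of the H1 family, 8 of H2A, 10 of H2B, 6 of H3 including H3C9P, and 6 of H4. The other 29 genes were not analysed here. Of the 36 genes, 24 lie on chromosome 6, 11 on chromosome 1 and 1 on chromosome 12, and 28 passed the filter on low counts and were tested.

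NCI-H1299 is a human lung cancer cell line, and RNA was sequenced from 18 libraries, 3 in each of 6 groups (Ctl, EV, TBX2, TBX3, TBX4 and TBX5). The TBX genes encode T-box transcription factors of 1 subfamily, and the comparison asks which genes change when each is over-expressed by transient transfection with Lipofectamine 2000. TBX2 and TBX4 were human Flag-tagged proteins from pORF plasmids, TBX3 was a human HA-tagged protein and TBX5 the mouse HA-tagged protein, both from pCGN plasmids. EV cells received empty vector and Ctl cells are the other control, and both kinds served together as 6 controls. Every group shares the cell line, and only part of the cells of a transfected culture takes up the plasmid. The labels do not say whether the libraries of a group came from separate cultures, so p-values measure only the spread between these libraries. In such bulk RNA, fewer cells with histone mRNA and less histone mRNA per cell cannot be told apart.

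Replication-dependent histone genes supply the core histones H2A, H2B, H3 and H4, around which DNA is wound, and the linker histones H1, which bind DNA between nucleosomes. They are transcribed mainly in S phase, when newly copied DNA has to be packaged. Their mRNAs are as a rule not polyadenylated. They end instead just after a conserved stem-loop that is bound by the stem-loop binding protein SLBP and cut by a machinery that includes the U7 snRNP, and they are degraded quickly when DNA synthesis stops.

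The stem-loop was present downstream of the stop codon, in the 3′ UTR, of all 35 protein-coding members in the table. A pattern of 16 bases (GG, any 2 bases, CTTT, any 2, AG, any 2, CC) was searched on the coding strand within 100 bases after each stop codon, and it was found in 61 of the 64 annotated protein-coding members (95.3%) against 6 of 19830 other protein-coding genes (0.0303%). Those 6 genes include H2AX, H3-4 and H3-7, which are also histone genes. 1 stem-loop per family and 1 further H2A gene are shown, read 5′ to 3′ from GRCh37 with the stem and loop in capitals and 5 bases on each side in lower case.
H1-5: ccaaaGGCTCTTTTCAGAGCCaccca
H2AC11: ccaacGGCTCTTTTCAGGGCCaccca
H2AC6: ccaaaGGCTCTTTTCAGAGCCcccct
H2BC21: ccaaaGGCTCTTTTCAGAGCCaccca
H3C12: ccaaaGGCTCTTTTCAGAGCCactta
H4C3: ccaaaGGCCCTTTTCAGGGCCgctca
The H1-5 stem-loop lies at chr6:27834575-27834590 and that of H3C12 at chr6:27858098-27858113, both on the minus strand. That of H2BC21 lies at chr1:149857738-149857753 on the minus strand, that of H2AC6 at chr6:26124897-26124912 and that of H4C3 at chr6:26104545-26104560, both on the plus strand. The H2AC11 stem-loop, at chr6:27101294-27101309 on the plus strand, joins the left arm of the common form to the right arm of the H4 form.

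Several H2A and H2B genes lie head to head and share 1 short promoter region. 6 such pairs were found among the members, with starts 215 to 248 bases apart. The region between H2BC21, which is transcribed to the left, and H2AC20, transcribed to the right, is shown from the plus strand of GRCh37 at chr1:149858233-149858467, because both genes belong to the results. CCAAT and TATAAA on either strand are in capitals.
H2BC21 to H2AC20: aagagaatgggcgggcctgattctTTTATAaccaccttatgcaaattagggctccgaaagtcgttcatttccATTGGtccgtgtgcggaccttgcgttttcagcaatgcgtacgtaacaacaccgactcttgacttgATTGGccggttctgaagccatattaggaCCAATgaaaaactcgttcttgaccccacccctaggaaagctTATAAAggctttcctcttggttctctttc
This stretch of 235 bases held 3 CCAAT and 2 TATAAA matches. In RefSeq promoters (GRCh38.p14, from 250 bases before to 50 after the start), matched by symbol for 33 of the 36 members, CCAAT was present on either strand in 28 members (84.8%) against 35.7% of 27305 promoters. TATAAA was present in 21 members (63.6%) against 12% of all promoters. The T-box half-site AGGTGTGA was in none of the 33 member windows and in 0.982% of all promoters. The 33 windows are not separate promoters. H2AC7 and H3C4 have the same window, H4C14 and H4C15 the same sequence, and windows of head-to-head pairs overlap, so some motif matches count more than once.

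Histone genes are so alike that reads can fail to be placed. Of 36 members, H3C14, H3C15, H4C14 and H4C15 had no window of 100 bases that occurs once in GRCh37, and reads that mapped to several places were not counted. H4C14 and H4C15 had 0 counts in all 18 libraries, H3C14 had 0 to 11 counts and H3C15 had 1 to 8. H4C11 kept 9.31% unique windows, H2AC13 41.2%, H3C13 46.2% and H2BC18 56.0%, while 17 of the 27 tested protein-coding members were unique throughout. The values of the genes with shared windows are therefore uncertain. H2AC7, unique in the genome, had 1 count in 1 library, and RefSeq gives it the same start as H3C4. H2AC1, H2BC1 and H1-1 had at most 8 counts in a library. The counting was not stranded, and H2AC21 overlaps BOLA1 over 15.3% of its exon bases. Overlap was looked for only with genes found in the count table. The annotated exons of H3C12 cover 71.05% of the exon bases of H2AC17, a gene not matched here, and the effect on H3C12 counts was not tested.

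The libraries held 7365221 to 11743179 counts. Each transfected gene was highest in its own group, from 4069 to 4804 CPM (counts per 1e6 of the TMM-scaled library total) for TBX2, 17700 to 25360 for TBX3, 7514 to 8463 for TBX4 and 128.4 to 241.7 for the human TBX5 row, to which reads of the mouse cDNA had to align. The third TBX4 library carries TBX5 in its title, was placed by its number, and held 85197 TBX4 counts and 1 TBX5 count. 1 row without a symbol in the tables used here took 10.7% to 53.5% of all counts, unevenly within groups, and RN7SK, a small nuclear RNA without a poly(A) tail, reached 11750 to 15160 CPM. Whether the libraries were made from poly(A)-selected or depleted RNA is not given in the sources used here. Of the cell type markers, VIM, KRT8 and KRT18 were tested, with 894.9, 37.6 and 70.1 CPM on average in the controls. NKX2-1, NAPSA, SFTPB and SFTPC of lung epithelium, EPCAM and CDH1 of epithelia, PTPRC of leukocytes and COL1A1 of fibroblasts did not exceed 1.14 CPM in any library. All 3 tested ones were lower with TBX2 and with TBX3 and 1 was lower with TBX4, and 1 was higher with TBX5; their part in the histone results was not tested.

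In the controls, the 35 protein-coding members together had 3017 ± 123.5 CPM (SD, n = 6). The H2B genes made up 1085 ± 42.8 CPM of this, the H1 genes 982.1 ± 49.0, the H2A genes 615.0 ± 25.1, the H4 genes 228.6 ± 19.2 and the H3 genes 106.6 ± 6.13 (SD, n = 6 each). The low H3 and H4 sums cover only the genes that were matched, and a part of these cannot receive unique reads. Per kilobase of transcript, the highest levels in the controls were those of H2BC12 (595.6 CPM per kilobase), H2AC11 (526.8), H1-4 (435.5), H1-5 (396.4) and H1-2 (384.2). H3C4 had 108.8 and H3C12 had 72.0 CPM per kilobase. The germline-type members H2BC1, H2AC1 and H1-6 were at or below 0.262 CPM per kilobase.

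**Figure D1:**
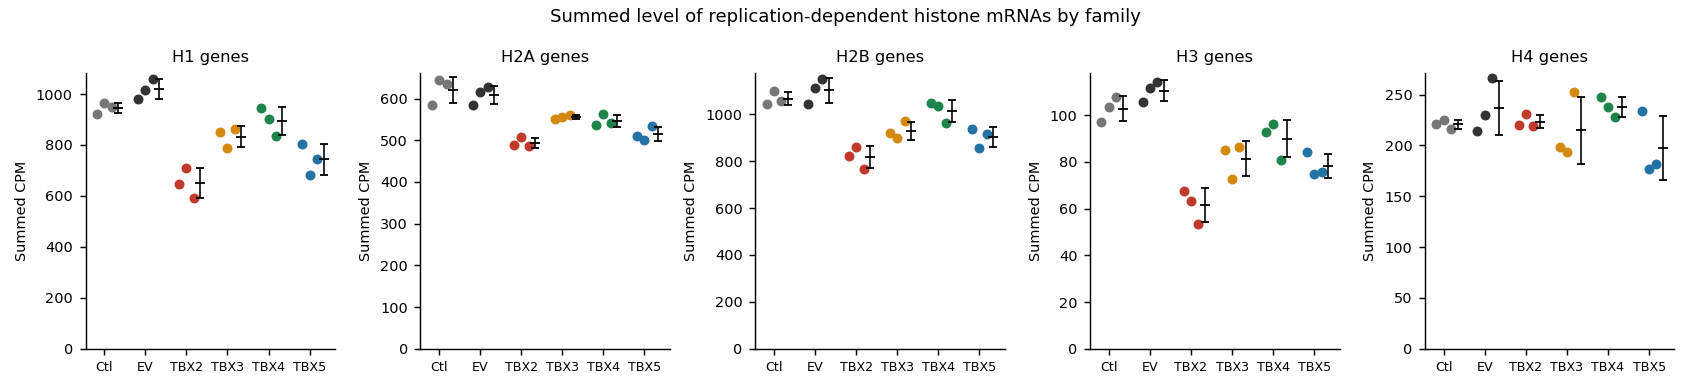
Summed CPM of the protein-coding members of each family (y axes, starting at 0) in each library of the 6 groups (x axis); points are libraries, and bars give the mean and SD of 3. The H1, H2A, H2B and H3 sums of the TBX2 libraries lie below all controls, whereas the H4 sums overlap them.

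The mean summed level was 2245 ± 127.6 CPM with TBX2 (74.4% of the control mean), 2437 ± 139.8 with TBX5 (80.8%), 2615 ± 114.0 with TBX3 (86.7%) and 2785 ± 120.1 with TBX4 (92.3%; SD, n = 3 each). The TBX2, TBX3 and TBX5 libraries, at 2117 to 2372, 2507 to 2734 and 2290 to 2569 CPM, all lay below the lowest control at 2871 CPM. The TBX4 libraries, at 2647.3 to 2870.8 CPM, also lay below that control, but the highest was almost level with its 2871.2 CPM. The sums are given as a description with no test.

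Gene by gene, 22 of 28 tested members were lower with TBX2 and 2 were higher, at an adjusted p under 0.1 in edgeR's quasi-likelihood test. Among all 15576 genes tested, 15.6% were lower and 17% higher. The median log2 fold change was -0.396 over the members and -0.001 over all genes. With TBX5, 17 members were lower and 1 was higher (all genes 6.12% and 6.55%; median -0.245 against -0.003). With TBX3, 13 were lower and 1 was higher (all genes 6.4% and 8.47%; median -0.174 against -0.002). With TBX4, 8 were lower and 1 was higher (all genes 6.07% and 6.97%; median -0.103 against -0.006). The 4 comparisons share their 6 controls, so they are not independent of each other. H3C9P was the member that was higher in each comparison, and it passed the filter only through the TBX libraries. H3C9P is therefore left out of the count in either direction. Of the 27 protein-coding members, 23 were called with TBX2 (32.6% of all genes), 17 with TBX5 (12.7%), 13 with TBX3 (14.9%) and 8 with TBX4 (13%).

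The groups can also be compared by overlap. Every TBX2 library was below every control in 19 members (11.7% of all genes), and the same held for 17 members with TBX5 (6.58%), 11 with TBX3 (6.18%) and 4 with TBX4 (5.82%). In the other direction H3C9P was the 1 member in each comparison, against 12.8% of all genes with TBX2, 7.44% with TBX5, 8.38% with TBX3 and 6.77% with TBX4; for the same reason nothing is read from these shares.

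Raw library totals in place of the TMM factors moved all genes together. The median of all genes became 0.254 with TBX4 and -0.31 with TBX5, and the members' median turned to 0.155 with TBX4 and was -0.552 with TBX5, -0.382 with TBX2 and -0.255 with TBX3. Relative to all genes, the members' median on that scale was -0.39, -0.176, -0.099 and -0.242, in the order TBX2 to TBX5, against -0.395, -0.172, -0.097 and -0.242 with TMM factors. On that scale, edgeR called 6 members lower with TBX2, 1 with TBX5 and 0 with TBX3 or TBX4, where 3 members each had an unadjusted p under 0.05 in either direction; DESeq2, with its own size factors, called 12 members with TBX3 and 8 with TBX4. With the row that took most counts left out of the totals, an alternative chosen after seeing the data, the all-gene median stayed between -0.055 and -0.017 in these comparisons.

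**Figure D2:**
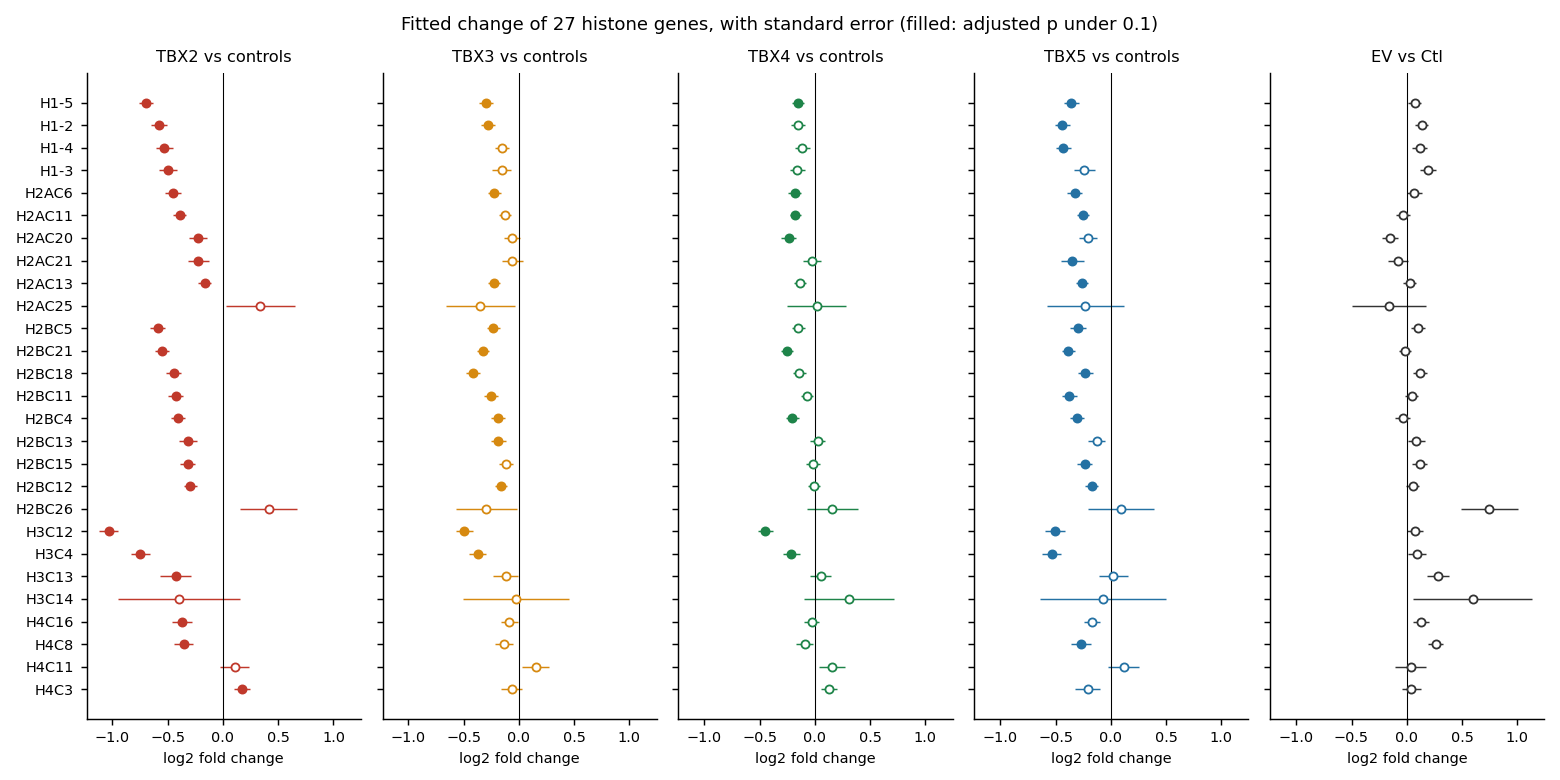
Log2 fold change (x axis) with its standard error for the 27 tested protein-coding members (rows, by family) in the 4 TBX comparisons with the 6 controls and in EV against Ctl; filled points have an adjusted p under 0.1. With TBX2 the called changes run from -1.04 for H3C12 to 0.17 for H4C3, on TMM scaling; on raw library totals, where the median of all genes is 0.254 with TBX4, the TBX4 values of most named members turn above 0, and the members' median relative to all genes is -0.099.

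6 members were lower in all 4 comparisons, namely H2AC6, H2BC4, H1-5, H2BC21, H3C12 and H3C4; among all genes 1.24% were. H3C9P was higher in all 4, but it passed the filter only through the libraries in which it is high, so this is not read against the 1.21% of all genes. A further 7 members were lower in 3 comparisons, 6 in 2 and 3 in 1. The 5 protein-coding members that were lower in none were H2AC25, H2BC26, H3C14, H4C3 and H4C11. Of these, H3C14, H2AC25 and H2BC26 are low-count genes with means of at most 2.46 CPM in the controls.

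Among the H3 genes, which encode the replication-coupled forms of H3, H3C12 had the largest decrease of any member with TBX2, TBX3 and TBX4. The 6 controls ran from 33.8 to 39.7 CPM with a median of 37.1. With TBX2 the 3 libraries read 20.01, 15.8 and 18.5 CPM, with TBX3 26.7, 22.4 and 28.4, with TBX4 28.2, 28.5 and 24.5, and with TBX5 30.1, 22.6 and 23.95. All 12 TBX libraries lay below the lowest control, and the TBX2 libraries were below all others. The log2 fold changes of H3C12 were -1.04 ± 0.086 (SE; adjusted p = 7.24e-09), -0.50 ± 0.078 (adjusted p = 0.000162), -0.45 ± 0.070 (adjusted p = 0.000144) and -0.51 ± 0.088 (adjusted p = 0.000786), in the order TBX2 to TBX5.

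The H3C4 controls ran from 45.4 to 60.1 CPM around a median of 56.0. Its TBX2 libraries read 33.7, 35.5 and 27.5 CPM and its TBX5 libraries 35.0, 40.2 and 39.2 CPM, all below the controls. With TBX3 they read 45.5, 38.2 and 42.7 CPM and with TBX4 48.1, 51.7 and 41.9 CPM, and both groups overlapped the controls. The log2 fold change was -0.75 ± 0.089 with TBX2 and -0.54 ± 0.085 with TBX5 (adjusted p = 1.29e-06 and 0.000275). It was -0.37 ± 0.078 with TBX3 and -0.21 ± 0.076 with TBX4 (adjusted p = 0.00266 and 0.078), and the TBX4 call was lost in 6 of the 9 fits that left out 1 library, with a value of -0.13 without TBX4 library c. H3C13 was lower with TBX2 alone and H3C14 in no comparison, and both share most or all of their windows with copies.

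The H1 genes encode linker histones, and all 4 tested ones (H1-2, H1-3, H1-4 and H1-5) were lower with TBX2. With TBX5 3 of them were lower, with TBX3 2 and with TBX4 1. The shares of all genes that were lower were 15.6% with TBX2, 6.12% with TBX5, 6.4% with TBX3 and 6.07% with TBX4. H1-5 had 289.7 to 337.3 CPM in the controls (median 316.6). It read 195.1, 207.1 and 181.3 CPM with TBX2, 260.4, 235.1 and 273.4 with TBX3, 294.7, 286.6 and 275.0 with TBX4, and 279.7, 217.2 and 241.9 with TBX5. Only the TBX4 libraries overlapped the controls. The log2 fold changes of H1-5 were -0.70 ± 0.065, -0.30 ± 0.062, -0.15 ± 0.055 and -0.36 ± 0.069 (SE) in this order, with adjusted p of 3.65e-08, 0.00253, 0.0923 and 0.002. The TBX4 value of H1-5 was near the threshold: it stayed between -0.17 and -0.12 when 1 library was left out, and the call was lost in 7 of those 9 fits.

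H1-2 and H1-4 were among the 5 members with the highest mean CPM. H1-2 ran from 259.3 to 315.2 CPM in the controls (median 279.5) and read 176.1, 213.0 and 174.2 CPM with TBX2 and 227.5, 192.6 and 200.7 with TBX5. All 6 of these values were below the controls. Its log2 fold changes were -0.58 ± 0.074 with TBX2 and -0.44 ± 0.068 with TBX5 (adjusted p = 3.93e-06 and 0.000199), -0.28 ± 0.066 with TBX3 (adjusted p = 0.00709) and -0.15 ± 0.061 with TBX4 (adjusted p = 0.127, not called). H1-4 ran from 293.5 to 367.2 CPM in the controls (median 349.7) and read 246.7, 257.8 and 205.3 CPM with TBX2 and 252.0, 241.7 and 269.6 with TBX5, again without overlap. It changed by -0.53 ± 0.077 with TBX2 and -0.43 ± 0.067 with TBX5 (adjusted p = 1.99e-05 and 0.000227). With TBX3 and TBX4 H1-4 had values of -0.15 ± 0.067 and -0.11 ± 0.065 that did not pass the test (adjusted p = 0.153 and 0.322).

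**Figure D3:**
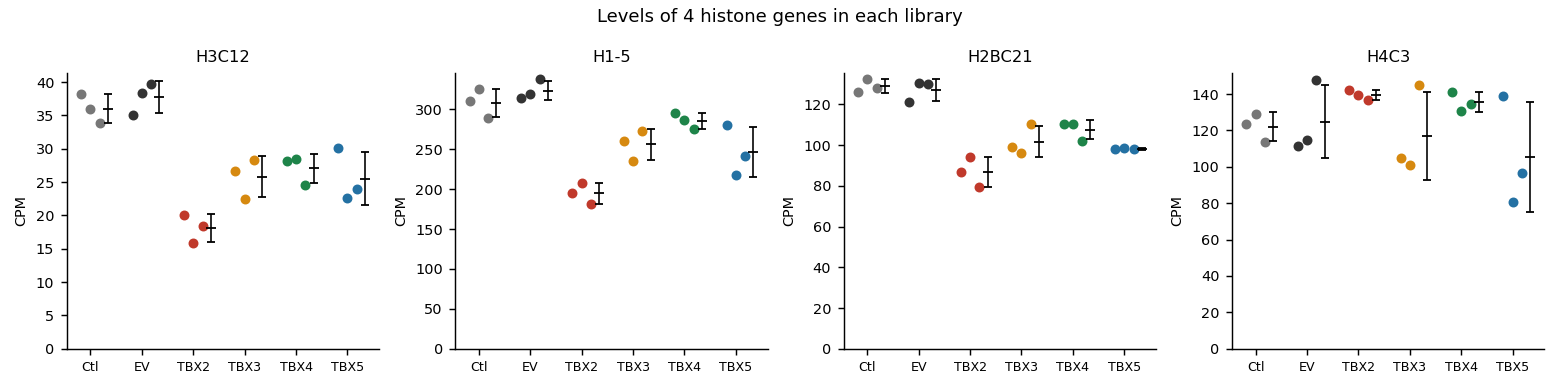
CPM (y axes, starting at 0) of H3C12, H1-5, H2BC21 and H4C3 in each library of the 6 groups (x axis); points are libraries, and bars give the mean and SD of 3. H3C12, H1-5 and H2BC21 are lowest with TBX2, whereas H4C3 ranges from 80.6 to 139.2 CPM among the TBX5 libraries alone.

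H2B, which pairs with H2A in the nucleosome, was the family with most tested genes and also with most calls. Of 9 tested H2B genes, 8 were lower with TBX2, 7 with TBX3, 7 with TBX5 and 2 with TBX4, and none was higher. Among all genes 15.6%, 6.4%, 6.12% and 6.07% were lower, in that order. H2BC21 read 121.0 to 132.6 CPM in the controls (median 128.9), a narrow range. Its libraries read 86.7, 94.3 and 79.6 CPM with TBX2, 98.9, 96.0 and 110.2 with TBX3, 110.5, 110.1 and 102.1 with TBX4, and 97.8, 98.8 and 98.0 with TBX5. None of the 12 reached the lowest control. The log2 fold changes of H2BC21 were -0.55 ± 0.063, -0.33 ± 0.058, -0.25 ± 0.053 and -0.38 ± 0.057 (SE), with adjusted p of 7.35e-07, 0.000626, 0.00305 and 0.000135. On raw library totals, with the all-gene median at 0.254, the TBX4 value of H2BC21 was 0.01. The annotated transcript of H2BC21 has 2224 bases and continues past the stem-loop, unlike the short transcripts of most members.

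H2BC12, the most abundant member per length, ran from 280.7 to 314.4 CPM in the controls (median 291.9). With TBX2 it read 239.0, 250.0 and 230.5 CPM, all below the controls, and with TBX4 304.7, 299.3 and 277.9 CPM, which overlapped them. Its log2 fold change was -0.30 ± 0.061 with TBX2, -0.16 ± 0.057 with TBX3 and -0.17 ± 0.058 with TBX5 (adjusted p = 0.000844, 0.0712 and 0.0739), and -0.01 ± 0.055 with TBX4 (adjusted p = 0.961). The TBX3 call of H2BC12 was lost in 4 of 9 fits that left out 1 library and the TBX5 call in 5 of 9, and 77.5% of its windows are unique. H2BC18 changed most with TBX3 among the H2B genes, from 67.0 to 77.4 CPM in the controls (median 72.0) to 53.6, 51.2 and 57.9 CPM, with no overlap and a log2 fold change of -0.41 ± 0.064 (adjusted p = 0.000138). It had -0.45 ± 0.070 with TBX2 and -0.23 ± 0.065 with TBX5 (adjusted p = 5.2e-05 and 0.0306), and -0.14 ± 0.061 with TBX4 (adjusted p = 0.162).

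The head-to-head pairs can be set side by side. H2BC4 ran from 148.0 to 180.3 CPM in the controls (median 164.9) and its partner H2AC6 from 94.5 to 109.4 CPM (median 101.5). With TBX2, H2BC4 read 131.6, 125.1 and 116.1 CPM and H2AC6 75.5, 81.6 and 65.6 CPM, all below their controls. H2BC4 had log2 fold changes of -0.41 ± 0.067, -0.19 ± 0.061, -0.20 ± 0.059 and -0.31 ± 0.066, in the order TBX2 to TBX5 (adjusted p = 8.65e-05, 0.0471, 0.0302 and 0.00479). H2AC6 had -0.45 ± 0.073, -0.22 ± 0.061, -0.18 ± 0.061 and -0.33 ± 0.070 (adjusted p = 7.16e-05, 0.0204, 0.0602 and 0.00479). Both genes of this pair were called in each comparison. The TBX4 call of H2AC6 was lost in 5 of 9 fits that left out 1 library (-0.23 to -0.15) and with Ctl controls alone (adjusted p = 0.207), as was its TBX3 call with Ctl controls alone (adjusted p = 0.106), and the TBX3 call of H2BC4 was lost in 2 of 9.

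In the pair whose shared region is printed above, the fitted values were less alike. H2AC20, 87.3% of whose windows are unique, ran from 96.9 to 128.7 CPM in the controls (median 102.3) and read 86.3, 89.1 and 98.1 CPM with TBX2, which overlapped the controls, and 87.3, 93.0 and 91.3 CPM with TBX4, which did not. Its log2 fold change was -0.23 ± 0.079 with TBX2 and -0.24 ± 0.071 with TBX4 (adjusted p = 0.0375 and 0.0341), and -0.06 ± 0.073 and -0.21 ± 0.080 with TBX3 and TBX5 (adjusted p = 0.666 and 0.122). With EV controls alone, H2AC20 had -0.14 with TBX2 and -0.16 with TBX4 and neither was called (adjusted p = 0.171 and 0.113). Its partner H2BC21 had -0.55 with TBX2 and -0.33 with TBX3. The difference between the partners was not tested. H2AC11, the H2A gene with the highest level, ran from 243.6 to 268.8 CPM in the controls (median 263.0) and read 196.1, 207.1 and 190.4 CPM with TBX2, with a log2 fold change of -0.39 ± 0.060 (adjusted p = 3.85e-05). H2AC11 had -0.12 ± 0.055, -0.18 ± 0.053 and -0.25 ± 0.057 with TBX3, TBX4 and TBX5 (adjusted p = 0.171, 0.0363 and 0.0074). Over the H2A family, 5 of 6 tested genes were lower with TBX2, 4 with TBX5, 3 with TBX4 and 2 with TBX3, and none was higher. In that order, 15.6%, 6.12%, 6.07% and 6.4% of all genes were lower.

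H4 genes had fewer calls. Of 4 tested H4 genes, 2 were lower (H4C8 and H4C16) and 1 was higher (H4C3) with TBX2, none was called with TBX3 or TBX4, and 1 (H4C8) was lower with TBX5. With TBX2, 15.6% of all genes were lower and 17% higher. The shares lower with TBX3, TBX4 and TBX5 were 6.4%, 6.07% and 6.12%. With 4 genes, the counts in these 3 comparisons are too small to be read against such shares. The median log2 fold change of the 4 was -0.125 with TBX2, against -0.554 for the 4 H1 genes and -0.406 for the 9 H2B genes. Whether the families differ was not tested. H4C11 had values between 0.11 and 0.15 in the 4 comparisons, none called, and only 9.31% of its windows are unique.

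H4C3, the H4 gene with the highest level, ran from 111.7 to 147.8 CPM in the controls (median 119.3). It read 142.2, 139.7 and 136.5 CPM with TBX2, 104.7, 101.0 and 144.9 with TBX3, 141.2, 130.6 and 134.8 with TBX4, and 139.2, 80.6 and 96.7 with TBX5. The TBX2 libraries overlapped the controls only through 1 EV library at 147.8 CPM. The log2 fold change with TBX2 was 0.17 ± 0.075 (adjusted p = 0.0916), a call that was lost when any of 7 of the 9 libraries was left out and in DESeq2 (adjusted p = 0.138). With TBX3, TBX4 and TBX5 H4C3 had -0.07 ± 0.093, 0.13 ± 0.069 and -0.21 ± 0.11 (adjusted p = 0.732, 0.284 and 0.278).

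The level of H4C3 moved with the row that took most counts. That row held 12.4% of the counts in the EV library with 147.8 CPM of H4C3 and 32.7% and 34.7% in the other EV libraries, which had 111.7 and 115.0 CPM. It held 10.7% in the TBX3 library at 144.9 CPM and 38.5% and 47.5% in the others, at 104.7 and 101.0 CPM. It held 22.5% in the TBX5 library at 139.2 CPM and 53.5% and 52.7% in the others, at 80.6 and 96.7 CPM. Across the 18 libraries, which share this row as part of their depth, Spearman's rho was -0.853 for H4C3, the most negative of the 28 tested members, and it was -0.734 for H3C13, -0.35 for H1-5 and -0.28 for H3C12. Within the 6 controls alone, Pearson's r was -0.915 for H4C3, -0.94 for H2BC5, -0.86 for H1-5 and -0.667 for H3C12. There it was -0.0932 for H3C4, and it was positive for H2AC21 (0.973), H2BC4 (0.208) and H2AC20 (0.207). The other tested members had negative values of varied size. With that share as a covariate, a fit chosen after seeing the data, H4C3 had -0.08 in place of 0.13 with TBX4. The number of members lower with TBX4 was then 6. The TBX4 values of H2AC11, H2AC6, H3C4, H2BC4 and H2AC20 were -0.20, -0.23, -0.25, -0.18 and -0.18 in that fit, close to those without the covariate, but none passed the test (adjusted p = 0.137, 0.148, 0.204, 0.262 and 0.371), whereas H1-2 did (-0.29, adjusted p = 0.0274).

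**Figure D4:**
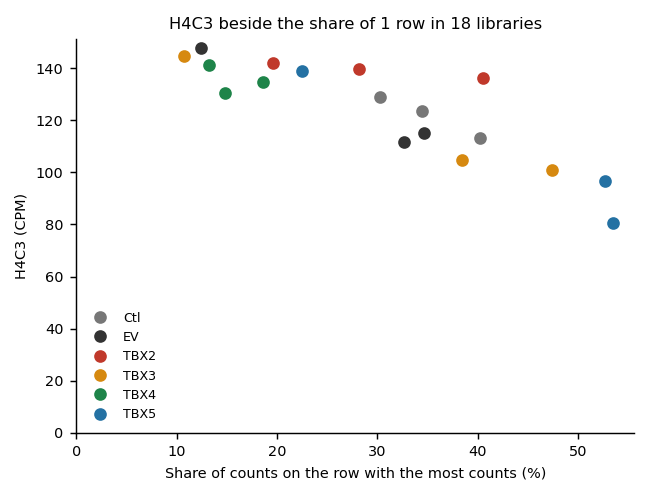
H4C3 level (y axis, CPM) against the share of a library's counts on the row with the most counts (x axis, percent) in 18 libraries, coloured by group. The TBX5 library at 22.5% has 139.2 CPM, and those at 53.5% and 52.7% have 80.6 and 96.7 CPM.

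The size of the decrease differed among the TBX groups for most members. In 1 fit of all libraries, 18 of 28 members differed among the 4 TBX groups, against 22.7% of all genes. These included 4 of 4 H1 genes and 8 of 9 H2B genes, but 2 of 6 H2A genes. H1-5 had the smallest adjusted p of the named members, 9.83e-05, and H2AC20, H3C9P and H4C3 did not pass (adjusted p = 0.309, 0.138 and 0.116). On raw library totals 0 of the 28 were called in this edgeR test, with 21 at an unadjusted p under 0.05, and DESeq2 called 15.

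The members can be split by annotated structure and position. The 10 members with more than 1 annotated exon had a median log2 fold change of -0.417 with TBX2 and -0.285 with TBX5, and the 17 with 1 exon had -0.39 and -0.24. The 17 protein-coding members unique in every window had -0.428 with TBX2 and -0.15 with TBX4, and the 10 with shared windows had -0.307 and -0.013. The 8 tested members on chromosome 1 had -0.314 and the 19 on chromosome 6 had -0.406 with TBX2. These medians are descriptions without a test.

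H3C9P is a pseudogene of 1 exon and 417 bases on the minus strand, at chr6:26322104-26322520 of GRCh37. It aligned to the transcript of H3-3A, which encodes the replication-independent variant H3.3, with 91.9% identity over 422 columns, and to H3C12 with 76.5%. It holds no stem-loop match, all its windows of 100 bases are unique in the genome, and no other gene of the table overlaps it. Its first 300 bases on its own strand (chr6:26322221-26322520) are shown because it is the member that rose in all comparisons.
H3C9P: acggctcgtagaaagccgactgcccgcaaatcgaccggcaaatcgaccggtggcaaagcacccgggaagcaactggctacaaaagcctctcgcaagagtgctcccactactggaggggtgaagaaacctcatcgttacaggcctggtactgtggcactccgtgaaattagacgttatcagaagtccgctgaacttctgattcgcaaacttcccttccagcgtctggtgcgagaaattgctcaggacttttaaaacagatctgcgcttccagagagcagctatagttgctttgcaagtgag
The nearest genes of the table, RNU6-1259P and H4C8, lie 30679 and 36238 bases away.

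H3C9P counts were near 0 in all controls, with 0, 1 and 1 in the Ctl libraries and 3, 1 and 6 in the EV libraries. They were 28, 54 and 39 with TBX2, 52, 48 and 56 with TBX4, 21, 35 and 25 with TBX5 and 13, 27 and 34 with TBX3. Every TBX library exceeded every control. Over the summed counts, H3C9P was 26.5-fold higher with TBX2 than in the controls (exact 95% interval 14.6 to 52.7, counting error only), 14.1-fold with TBX3 (7.63 to 28.6), 23.5-fold with TBX4 (13.1 to 46.4) and 22.7-fold with TBX5 (12.3 to 45.7). The fitted log2 fold changes were 4.65 ± 0.37, 3.75 ± 0.42, 4.48 ± 0.33 and 4.46 ± 0.45 (SE), which are descriptions, since the gene was tested only because of its TBX counts. H3-3A itself read 23.6 to 33.3 CPM over all 18 libraries and was not called in any comparison.

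**Figure D5:**
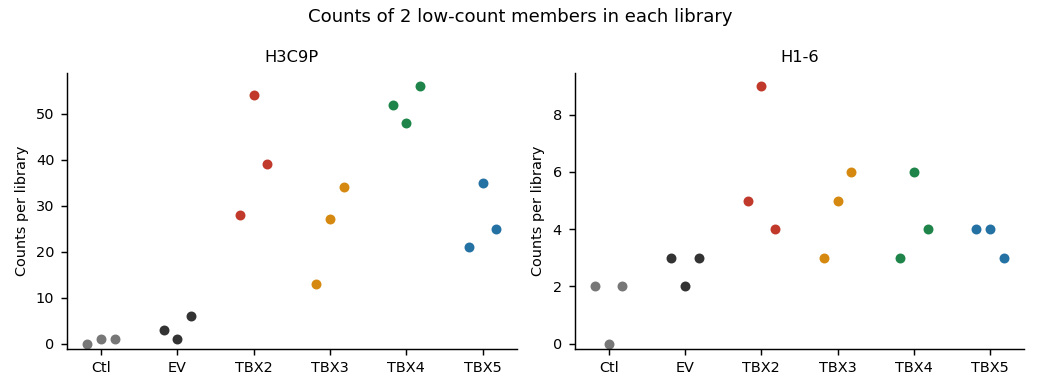
Counts per library (y axes) of H3C9P and of H1-6 in the 6 groups (x axis); each point is 1 library. H3C9P has at most 6 counts in a control and at least 13 in a TBX library, and H1-6 stays between 0 and 9 counts.

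H1-6, the testis-type linker histone, was not tested because of its low counts and was looked at after its values were seen. It had 0 to 3 counts in the controls and 3 to 9 in the TBX libraries. Its summed rate was 3.95-fold that of the controls with TBX2 (exact 95% interval 1.80 to 8.98), 3.08-fold with TBX5 (1.23 to 7.63), 2.67-fold with TBX3 (1.15 to 6.33) and 1.96-fold with TBX4 (0.823 to 4.69). H1-1, at 0 to 8 counts, had ratios between 0.572 and 1.02, with intervals that all include 1.

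Empty vector alone gave no called member. Of 28 members, 0 were called between EV and Ctl in edgeR and 0 in DESeq2, with 6 and 3 at an unadjusted p under 0.05, and 0.385% of all genes were called (0.103% lower, 0.282% higher). The members' median log2 fold change was 0.082 against 0.001 over all genes. In 4 members (H1-3, H3C13, H3C9P and H4C8) every EV library was above every Ctl library, and in none was every EV library below. Over all genes these shares were 7.64% and 6.90%. H3C9P is in this set only through library size, since EV library b and Ctl libraries b and c had 1 count each. It also passed the filter only through the TBX libraries. H3C9P had 10 counts in EV and 2 in Ctl, a ratio of 4.67 (exact 95% interval 0.996 to 43.9), with a fitted log2 fold change of 2.04 ± 0.85 (adjusted p = 0.474). Without the third Ctl library, 1 member was higher in EV.

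Genes that make and process histone mRNA were read as a list of 26, all tested. With TBX2, 5 were lower and 3 higher, with TBX3 2 and 6, with TBX4 1 and 2, and with TBX5 4 and 2, and the list's median log2 fold change lay between -0.014 and 0.073. In total 8, 8, 3 and 6 of the 26 were called, where 32.6%, 14.9%, 13% and 12.7% of all genes were. POU2F1, whose protein Oct-1 binds H2B promoters, rose in each, by 0.41 ± 0.064, 0.37 ± 0.061, 0.21 ± 0.059 and 0.24 ± 0.068 (SE; adjusted p = 4.52e-05, 0.000305, 0.0264 and 0.0269), from 55.1 ± 3.26 CPM in the controls (SD, n = 6). TUT7, which adds uridines to histone mRNA during its decay, rose as well, by 0.26 ± 0.068, 0.37 ± 0.066, 0.25 ± 0.062 and 0.30 ± 0.072. On raw library totals, where the all-gene median was -0.31 with TBX5, their TBX5 values were -0.08 and -0.02. With the share of the row that took most counts as a covariate, their TBX4 values were 0.17 and 0.19 (adjusted p = 0.304 and 0.265, not called). CDK2, the S-phase kinase, was lower with TBX2, TBX3 and TBX5 (-0.20, -0.22 and -0.29; adjusted p = 0.0602, 0.0314 and 0.00995). The TBX2 value of CDK2 was -0.12 without TBX2 library a and -0.33 without TBX2 library b, and the call was lost in 4 of 9 such fits and with either kind of control alone (adjusted p = 0.158 and 0.136). SLBP, named here after its values were seen, was lower with TBX2 (-0.28 ± 0.064, adjusted p = 0.00208) and was not called with the others.

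The replication-independent histones, which are made throughout the cell cycle, had 11 tested genes. With TBX2, 3 were lower, with TBX3 2, with TBX4 1 and with TBX5 2, where 15.6%, 6.4%, 6.07% and 6.12% of all genes were lower. H2AX, the variant that marks DNA breaks and 1 of the few other genes with a stem-loop match, was lower with TBX2, TBX4 and TBX5 (-0.51 ± 0.073, -0.26 ± 0.071 and -0.23 ± 0.072; adjusted p = 1.63e-05, 0.0194 and 0.0573). The TBX5 call of H2AX was lost in 4 of 9 fits that left out 1 library and with EV or Ctl controls alone (adjusted p = 0.14 and 0.116). MACROH2A1 was lower with TBX2 and TBX3 (-0.26 and -0.25).

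Histone chaperones, which escort histones to DNA, were a list of 21 genes. With TBX2, 9 were lower and 0 higher, with TBX3 1 and 1, with TBX4 3 and 1, and with TBX5 1 and 0. Of all genes, 15.6%, 6.4%, 6.07% and 6.12% were lower in the same order. MCM2, a subunit of the replicative helicase that also binds H3 and H4, was lower with TBX2 and TBX5 (-0.40 ± 0.069 and -0.28 ± 0.062; adjusted p = 0.000135 and 0.00537). ASF1B, a chaperone of H3 and H4 in dividing cells, was lower with TBX2 and TBX3 (-0.41 and -0.25). The TBX2 value of ASF1B was -0.27 without TBX2 library c, and its TBX3 call was lost in 2 of 9 fits that left out 1 library and with EV controls alone (-0.19, adjusted p = 0.221). RBBP7 was lower with TBX2 and TBX4 (-0.30 and -0.18). The list's median was -0.133 with TBX2, smaller in size than that of the histone members. None of the genes in these 3 lists was called between EV and Ctl by edgeR.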

How the data were processed

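RNA was sequenced as paired ends from 18 libraries. Per the study's methods and the submitters' processing notes, the authors aligned reads to GRCh37 with STAR 2.3.0 and made the deposited counts per gene with featureCounts at default settings; bcl2fastq 1.8.4 and DESeq2 are also named. By default, reads on several places or genes are not counted. Counts were analysed in edgeR 4.0.16 (R 4.3.3): genes above 5 counts in at least 10 libraries, TMM scaling, quasi-likelihood tests of each TBX group against the 6 controls, Benjamini-Hochberg adjusted p under 0.1. SE is the absolute log2 fold change over the root of the F statistic. CPM uses TMM-scaled totals, and intervals cover counting error only. Members were matched by identifier to the GENCODE annotation lifted to GRCh37. The fits were tested on simulated data. The members named were those the study lists or measured by qPCR, the 5 with highest CPM, the highest of each family, the 3 largest called changes each way per comparison, H3C9P, and the 3 genes of each list called most often. A few genes of the lists are not reported here. The members and lists were chosen with earlier results of these data known. Alternatives were DESeq2 1.42.0, other scalings, filters, control sets, a replicate block, and leaving out each library.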

Additional observations from a re-analysis of the deposited data

Results flagged for a closer look

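The levels of 11 named members differed among the 4 TBX groups in an F test over 1 fit of all libraries. The adjusted p were 9.83e-05 for H1-5, 0.000804 for H1-4, 0.00109 for H3C12, 0.00195 for H1-2, 0.00202 for H3C4, 0.00612 for H2BC18, 0.0125 for H2AC11, 0.0135 for H2BC12, 0.0138 for H2BC21, 0.0564 for H2AC6 and 0.0848 for H2BC4. In each of these members the fitted change was more negative with TBX2 than with TBX4. None of the 14 named members had a control library set apart from the other 5 by Dixon's criterion.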

How the results depend on the processing

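Depth limits the low members: a count of 3, the limit that 0 counts allow, corresponds to 0.256 to 0.407 CPM, so that the values of H1-6 and H1-1 rest on few counts, and the members without unique windows cannot be read from these libraries. On raw library totals, members lower were 6 (TBX2), 0 (TBX3), 0 (TBX4) and 1 (TBX5), with 16, 3, 3 and 22 members at an unadjusted p under 0.05 in edgeR, members higher were 1 with TBX2 and 2 with TBX4, and 0 members differed among TBX groups. The median there was 0.155 with TBX4, -0.552 with TBX5 and 0.281 for EV against Ctl. TBX4 values above 0 on totals, where the all-gene median was 0.254, were 0.10 for H1-2, 0.15 for H1-4, 0.11 for H1-5, 0.08 for H2AC11, 0.03 for H2AC20, 0.08 for H2AC6, 0.25 for H2BC12, 0.12 for H2BC18, 0.01 for H2BC21, 0.06 for H2BC4, 0.05 for H3C4, 0.00 for H2AX and 0.09 for RBBP7, and the TBX5 values of POU2F1 and TUT7 were -0.08 and -0.02 (all-gene median -0.31). H2BC12 with TBX4 was 0.00 at 10 or more counts in every library and 0.02 with Ctl controls alone. H2AC20 with TBX3 was 0.01 with EV controls alone, and H4C3 with TBX4 was -0.08 with the share of the row that took most counts (the top row) as a covariate. The count of members higher with TBX2 was 1 in place of 2 in DESeq2, with DESeq2 size factors, at 10 or more counts in every library, under the replicate block, with EV controls alone, in 1 fit of all libraries and on totals without the top row. It was 0 with TBX3 in DESeq2, which gave H3C9P no adjusted p there, and 0 with TBX3, TBX4 and TBX5 at 10 or more counts in every library, a filter that removes H3C9P. With Ctl controls alone, the TBX2 median was -0.304 and 5 members were lower with TBX4, and with EV controls alone the TBX5 median was -0.289. The cause of these differences was not tested. Leaving out 1 library gave 20 to 22 members lower and 1 to 3 higher for TBX2 (median -0.417 to -0.338), 9 to 14 lower for TBX3 (median -0.259 to -0.141), 4 to 9 lower and 1 to 2 higher with TBX4 (median -0.135 to -0.057), 13 to 19 lower with TBX5 (median -0.285 to -0.222), 0 to 1 higher in EV, and 13 to 21 differing among TBX groups. The TBX4 count fell to 4 without TBX4 library a or c (c is titled TBX5) and to 5 without EV library b or c, and 2 were higher without EV library c. The TBX3 median was -0.259 without TBX3 library c, and the member higher in EV appeared without Ctl library c. H4C3 ranged from -0.27 to 0.03 with TBX3 and H2BC12 from -0.03 to 0.04 with TBX4 in these fits. Same-letter deviations correlated by -0.00092 on average (-0.115 to 0.199 over 45 pairs), so no pairing by the letters a to c was seen over all genes. Such a mean cannot exclude pairing in single genes or groups. The replicate block, with 1 member higher with TBX2, moved no count of lower members by over 1.5 times, and it lost the calls of H4C3 with TBX2 and of H1-5 and H3C4 with TBX4.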
